A study of Mus musculus with 2 samples.

Results

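The 6 actin genes of the mouse, Acta1, Acta2, Actb, Actc1, Actg1 and Actg2, were followed in gastrocnemius, the large calf muscle, with and without a plaster cast. Every gene probe carrying one of these symbols was taken, which gave 11 of the 39429 gene probes of the array and 20 of its 43020 gene spots. The family was chosen by its log2 ratios of cast over control on these same arrays, so those ratios are descriptions and support no test. Both groups were male C57BL/6 mice aged 9 weeks, with no allele or other agent named in the labels. The cast group had the hindlimb fixed in plaster for 11 days, and no treatment is given for the control group. The labels were read as RNA pooled from 6 mice in each group, and 1.65 µg of Cy3-labelled cRNA is given for each array. Each pool was measured on 1 array, both arrays on 1 slide. There was thus no replicate and no p-value. The differences hold for these 2 pools, and variation between mice was not measured.

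Actin is the protein that polymerises into the thin filaments of muscle and into the cytoskeleton of all cells. Mammals make it from a small gene family whose proteins are almost identical, while the ends of the transcripts and the promoters differ. Acta1 encodes skeletal alpha-actin, the main thin filament actin of adult limb muscle. Actc1 encodes cardiac alpha-actin, the main actin of the adult heart, which skeletal muscle uses during its development and regeneration. Acta2 and Actg2 encode the alpha and gamma actins of smooth muscle. Actb and Actg1 encode the beta and gamma actins of the cytoplasm. Transcription of several of these genes depends on serum response factor (SRF) and its actin-binding partners of the MRTF family, which bind unpolymerised actin and enter the nucleus when it is used up.

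Levels are given as the processed signal of a probe divided by the 75th percentile of all gene probes on its array, which was 385 for control and 486 for cast. Ratios are log2 of cast over control on this scale, so a negative value is a lower signal in the cast pool. This scaling subtracts 0.34 from each unscaled log2 ratio, so a scaled ratio between −0.34 and 0 lies above 0 without scaling. The unscaled median over all gene entries was 0.31. A probe counts as measured when both arrays read it well above background, which held for 22032 of 39418, and no gene spot was saturated. As a check of the tissue label, all 10 fast skeletal fibre markers were among them. Of 9 cardiac markers, 6, among them Tnni3, Myl7 and Nkx2-5, were well above background on neither array. The brightness of different probes depends on their sequence as well as on the RNA, so brightness orders the probes and does not rank genes by transcript level. The summed level of a marker list adds such signals and is led by its brightest probes.

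All 11 actin probes were well above background on both arrays. Of them, 8 had a lower and 3 a higher scaled signal in the cast pool, where 52.5% of all probes were lower. The count of lower actin probes was 8 without scaling as well, where 19.8% of all probes lay below 0. Of the actin probes, 2 (1 of Actc1 and 1 of Actg1) were at least 2-fold lower (2.02% of all probes), and 5 were at least 1.5-fold lower (7.95% of all probes). None was 1.5-fold higher (7.24% of all probes) or 2-fold higher (2.17%). The median of the 11 probes was −0.54, against −0.02 over all probes. Since the genes were chosen with these values known, and 5 of the probes belong to Actg1, these shares describe the set and no more.

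**Figure D1:**
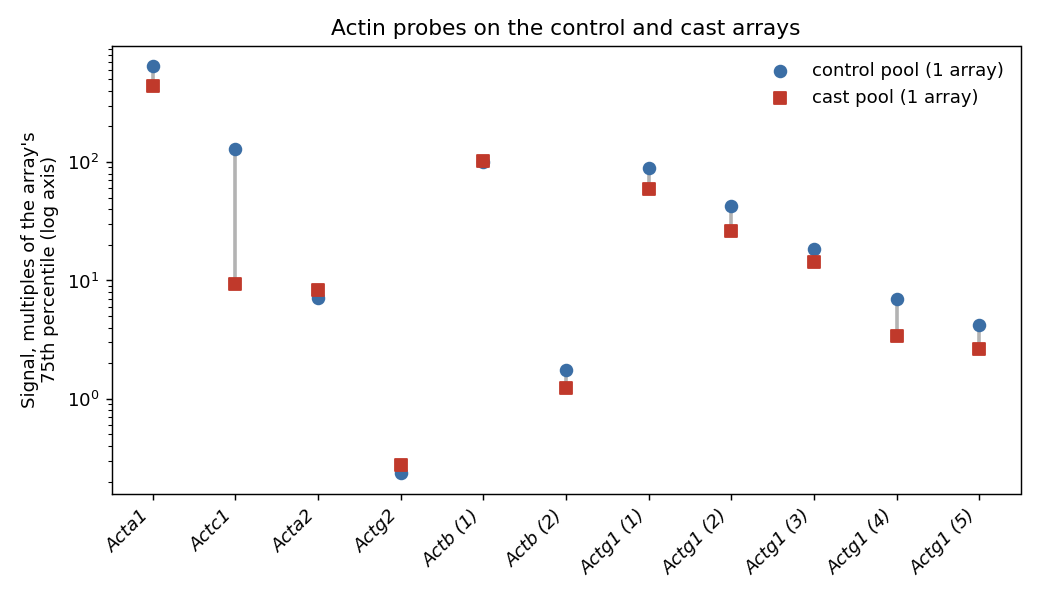
Signal of each actin probe on the control array (circles) and the cast array (squares), as multiples of the array's 75th percentile on a log axis, 1 pooled array per group. Numbers in brackets order the probes of Actb and Actg1 by brightness, and the line at Actc1 spans 129 to 9.35, the widest gap of the 11 probes.

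Cardiac alpha-actin stood furthest from its control value. The Actc1 probe read 129 times the 75th percentile in the control pool and 9.35 times in the cast pool. The cast signal was 13.8-fold lower, a log2 ratio of −3.79, and −3.45 without scaling. This was the lowest ratio of all 22032 measured probes, the next being −3.65. The scanner software's own error model gave 0.20 log2 units for this ratio, and probes of similar brightness that are spotted several times had a median SD of 0.04 between spots of a ratio. Both errors concern the spots and not the mice. Over 9 other ways of processing, the Actc1 ratio ran from −3.86 to −3.44. Among them, dropping the filter on dim probes and averaging the probes of a gene cannot change the ratio of a gene with 1 probe. The probe lies at chr2:113873064-113873123 of the mm9 assembly, on the minus strand. Its first 30 of 60 bases are shown because they belong to the 1 probe on which this value rests, and they read ctctcatcagtcattgtacagtttgtttac.

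The 3 measured genes nearest to Actc1 in log2 ratio were Gm8060 at −3.65, BC048679 at −3.29 and Nrep at −2.62. Likeness here means the distance between ratios over 2 arrays, 0.14, 0.50 and 1.17 log2 units in that order. Markers of slow fibres were lower on the same array. All 7 were below 0, with a median of −0.78, and their summed level was 466 in the control pool and 188 in the cast pool. The lowest were the slow myosin light chains Myl3 at −1.90 and Myl2 at −1.72, which the heart also uses. Of the 9 cardiac markers, Myh6 at −0.37 and Nppb at 0.17 were measured on both arrays. Embryonic or regenerating fibre markers had a median of 0.39 over 7 measured genes, with summed levels of 644 and 512. Ncam1 entered at −0.04 by its brightest probe, while another of its 3 probes was at 1.32. The embryonic and cardiac troponin T gene Tnnt2 was higher at 1.85 and the embryonic and atrial light chain Myl4 at 1.24. The perinatal myosin Myh8, which made up most of both sums, was at −0.37. Its probe read 633 in the control pool, against 426 for the adult fast myosin Myh4 and 166 for Myh1. Whether the Myh8 probe also reads other myosins was not tested. The part of fibre type or fibre age in the Actc1 value was not tested. In pooled tissue RNA, fewer cells of a type and less RNA per cell cannot be told apart.

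**Figure D2:**
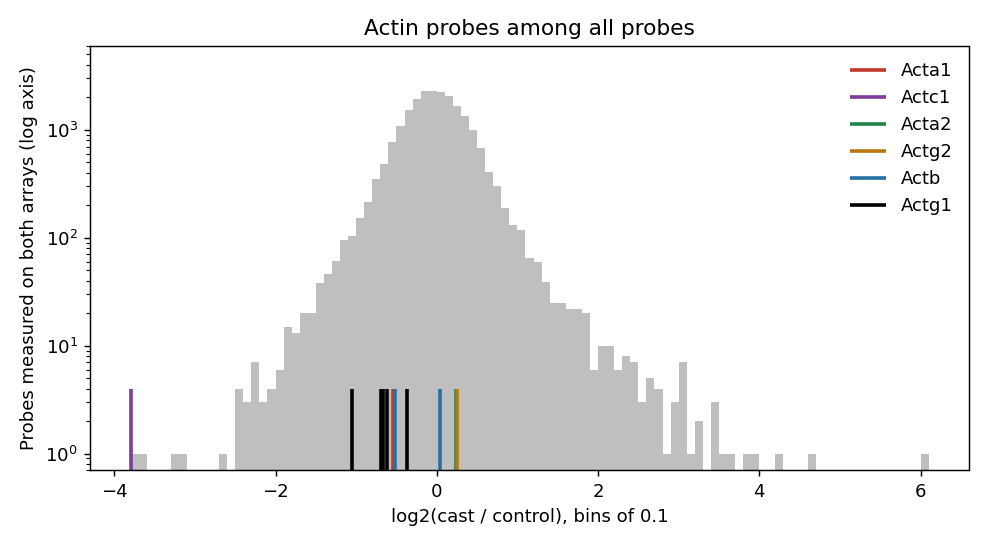
Histogram of log2(cast/control) over the 22032 probes measured on both arrays, in bins of 0.1 with counts on a log axis, and the 11 actin probes as coloured marks at their ratio. Actc1 lies at the lowest end at −3.79, and the other 10 actin probes lie between −1.05 and 0.25.

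Skeletal alpha-actin was lower by a much smaller amount. Acta1 read 644 in the control pool and 442 in the cast pool, a scaled log2 ratio of −0.54, or 1.46-fold lower. Without scaling the ratio was −0.21, close to the software error of 0.20. Of all measured probes, 9.30% had a lower scaled ratio. The signal itself was 247802 and 214739 intensity units, below the brightest spots of the arrays at 510116 and 653197. The 10 fast fibre markers had a median of −0.16, with 8 below 0 and summed levels of 4355 and 3819. Among them the fast troponin I gene Tnni2 was at −0.59 and the muscle creatine kinase gene Ckm at −0.37. The Acta1 ratio was 3.25 log2 units above that of Actc1, a difference that scaling by 1 factor per array leaves as it is. Quantile normalization gave −0.32 and −3.82 for these genes, and loess −0.64 and −3.86. The Acta1 probe lies at chr8:126416197-126416256 (mm9, minus strand) and is shown whole, as its letters were set against those of the other actin probes: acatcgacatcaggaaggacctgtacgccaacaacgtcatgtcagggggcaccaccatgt.

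The smooth muscle actins were slightly higher in the cast pool. Acta2 is the only member spotted more than 1 time, on 10 spots of each array. Its spots read 6.49 to 7.42 in the control pool, with a median of 7.14 (SD 0.29 between spots). They read 7.73 to 8.85 in the cast pool, with a median of 8.33 (SD 0.33). The spots of the arrays did not overlap on this scale. How many other replicated probes show such a gap was not counted, so the gap does not set Acta2 apart from them. Replicated probes of similar brightness had a median SD of 0.04 between spots of a ratio. The log2 ratio was 0.24 ± 0.03 (SD, n = 10 spots), above 0 at 10 of 10 array positions, with a range of 0.18 to 0.28. The software error of this scaled ratio was 0.20, close to the ratio itself. Of all measured probes, 74.99% had a lower scaled ratio, so a value this high was common on these arrays. The unscaled ratio was 0.58. Spots of 1 array share the same RNA, so their spread shows how well the arrays were read and nothing of the mice. The probe lies at chr19:34316060-34316119 (mm9, minus strand), and the first 30 of its bases are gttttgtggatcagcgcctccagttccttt.

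**Figure D3:**
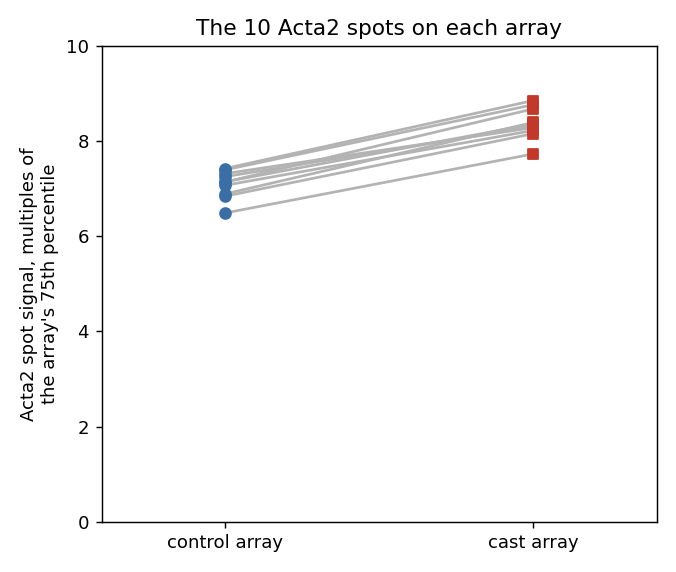
The 10 Acta2 spots on the control array and the cast array, as multiples of the array's 75th percentile on a linear axis from 0, with a line joining spots at the same position. Spots ran from 6.49 to 7.42 on the control array and from 7.73 to 8.85 on the cast array, and each line goes upward.

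Actg2, the actin of gut and bladder muscle, was dim. It read 0.234 in the control pool and 0.278 in the cast pool, a log2 ratio of 0.25 with a software error of 0.22. Another background correction gave 0.10, and no scaling gave 0.59. Its probe lies at chr6:83462904-83462963 (mm9, minus strand) and begins tctggggatccccacaagactgctgtcacc. Of 8 smooth muscle markers, 6 were measured, with 4 below 0, a median of −0.11 and summed levels of 86.5 and 113. Smooth muscle myosin Myh11 was at −0.05, transgelin (Tagln) at 0.06, calponin (Cnn1) at −0.17 and smoothelin (Smtn) at −0.46. Desmin (Des), which skeletal fibres also make and which made up most of both sums, was at 0.73. Lmod1 was well above background on neither array, and Myocd on the control array alone. The 6 pericyte markers had a median of −0.18 and summed levels of 24.1 and 24.6. The part of these cells in the Acta2 and Actg2 values was not tested.

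Actb, used in many laboratories as a reference gene, had a pair of probes that gave different values. The brighter one read 99.8 in the control pool and 103 in the cast pool, a scaled log2 ratio of 0.04. Without scaling it was 0.38. With quantile and loess normalization it was −0.08 and −0.04, so the side of 0 on which this probe lies depends on the scaling. It lies on the minus strand of chr5:143665422-143665481 (mm9), and its first 30 bases are tctaggcggactgttactgagctgcgtttt. The dimmer probe, also named Actb on the array, is placed on another chromosome, at chrX:148868300-148868359 on the plus strand. It read 1.76 and 1.23, a ratio of −0.51, or 1.43-fold lower. These probes differed by 0.55, beside a software error of 0.20 for each ratio. Scaling by 1 factor per array leaves this difference as it is, while quantile normalization gave −0.08 and −0.51 and loess −0.04 and −0.50 for the pair. Whether the probe on chrX measures Actb at all was not tested. Of 3545 genes with more than 1 measured probe, the median range between probes was 0.18.

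Set against the brighter Actb probe, Acta1 was at −0.58, Actc1 at −3.83, Acta2 at 0.20 and Actg2 at 0.21, while the 5 Actg1 probes ran from −1.09 to −0.40. Set against the dimmer probe, Acta1 was at −0.03, Actc1 at −3.28, Acta2 at 0.75 and Actg2 at 0.76, and Actg1 ran from −0.53 to 0.15. The second set of values holds as a comparison with Actb only so far as the probe on chrX measures that gene. Actc1 was lower and the smooth muscle actins higher against either probe.

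**Figure D4:**
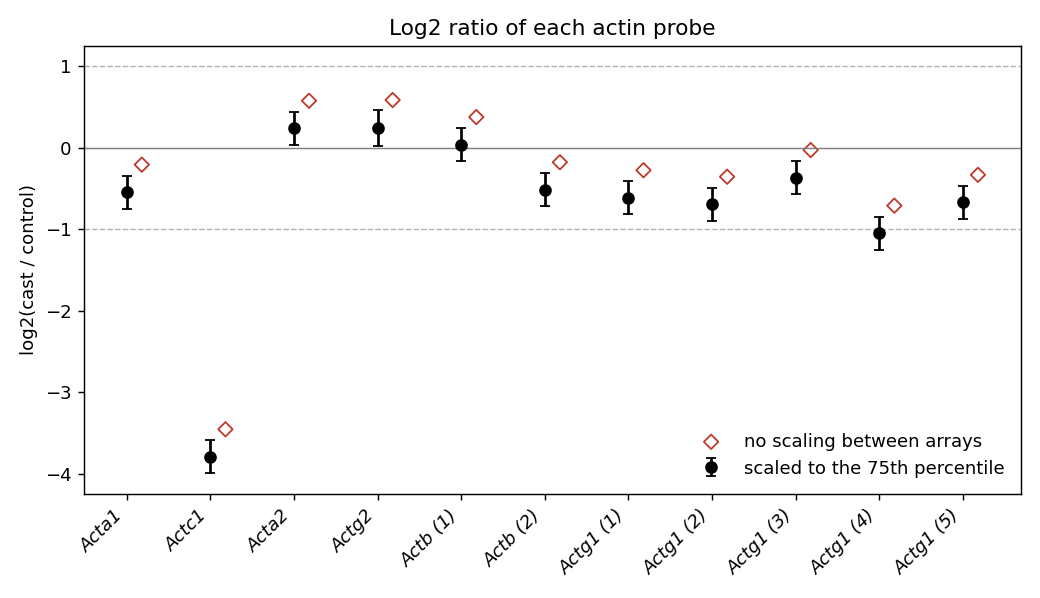
log2(cast/control) of each actin probe after scaling to the 75th percentile (filled circles, bars are the scanner software's error of the ratio) and without scaling (open diamonds), 1 array per group, dashed lines at 2-fold. Actc1 lies far below the rest on both scales, and the probe of Actg1 at −1.05 passes the lower dashed line when scaled and not when unscaled.

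Cytoplasmic gamma-actin was lower at each of its 5 probes. The brightest Actg1 probe read 89.9 in the control pool and 58.8 in the cast pool, a log2 ratio of −0.61. The others read 42.3 and 26.2 (−0.69), 18.3 and 14.2 (−0.37), 7.03 and 3.40 (−1.05), and 4.23 and 2.66 (−0.67). The median of the ratios was −0.67 and their SD 0.24 between probes of 1 gene. Without scaling all 5 were still below 0, from −0.71 to −0.03. The probe at −1.05, which was 2.07-fold lower, is the second actin probe past 2-fold, and it lay short of 2-fold without scaling (−0.71), with spike-in scaling (−0.70), with median scaling (−0.97) and with another background correction (−0.97). The range between the Actg1 probes was 0.68. Among 25 genes with at least 5 measured probes the median range was 0.59, 28% had a range as wide as that of Actg1, and 10 had all probes on the same side of 0.

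The 5 Actg1 probes lie in 2 places on chromosome 11 of mm9, all on the minus strand. The brightest maps to chr11:120206967-120206984, where 18 of its 60 bases are placed, and the next to chr11:120206997-120207056. The other 3 overlap each other, at chr11:120208409-120208468 (−0.37), chr11:120208361-120208420 (−1.05) and chr11:120208371-120208430 (−0.67). The 22 bases shared by the probes at −0.37 and −0.67 are identical. The probes at −1.05 and −0.67 share 50 positions, of which 4 carry different letters, and both are shown over that stretch with the differing letters in capitals:
Actg1 probe at −1.05: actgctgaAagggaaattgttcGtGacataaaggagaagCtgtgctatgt
Actg1 probe at −0.67: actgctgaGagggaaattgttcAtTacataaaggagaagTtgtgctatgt
Counted from the 5′ end of the first, the differences are A9G, G23A, G25T and C40T. Overlapping probes of the same named gene, with 46 of 50 bases alike, thus gave ratios 0.38 log2 units apart. The probe at −0.37 is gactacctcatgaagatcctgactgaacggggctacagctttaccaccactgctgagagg, whose last 22 bases are the shared ones.

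A search for relatives of the actin probes compared all 39429 gene probes on both strands and kept matches over at least 36 bases with at least 70% identity and no gap. It found 3 matches outside the 6 genes, each to a probe with no gene symbol, and each of those was lower in the cast pool too. The brightest Actg1 probe matched a probe placed at chr8:47316001-47316060 at 55 of 58 bases. That probe read 4.79 and 3.36, a ratio of −0.51. Over 30 bases of the match, with differing letters in capitals, they read:
Actg1 probe at −0.61: aacgtttgCatcgacacctgtaaatgtatT
chr8 probe: aacgtttgAatcgacacctgtaaatgtatC
The Actg1 probe at −0.69 matched a probe placed at chr16:64917095-64917154 at 50 of 58 bases. That probe read 62.9 and 39.8, a ratio of −0.66. They are shown over 30 bases in the same way:
Actg1 probe at −0.69: aatTaaagtgctgcagtaacTGaCaAaAaA
chr16 probe: aatAaaagtgctgcagtaacAAaGaGaGaG
The ratios of these probes were 0.10 and 0.03 log2 units above those of the Actg1 probes they matched.

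The dimmer Actb probe matched a probe placed at chrX:48572171-48572230 at 28 of 38 bases (73.7%). That probe read 33.2 in the control pool and 8.76 in the cast pool, a ratio of −1.92, or 3.79-fold lower. The stretch of the match is shown whole:
Actb probe on chrX: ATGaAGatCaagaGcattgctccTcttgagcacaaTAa
chrX probe without a symbol: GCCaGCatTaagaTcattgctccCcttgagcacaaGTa
Between probes of different actin genes, the highest identity over at least 36 bases was 51.3%, at 20 of 39 bases. Only probes were compared with each other. The transcripts were not, so signal that a transcript of 1 actin gives at the probe of another was not tested.

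Few other gene records had a probe within 10000 bases of an actin probe, and none lay that near to the Actc1 probe. Nup133 beside Acta1 was at −0.28, Stambpl1 beside Acta2 at −0.13 and the gene record LOC100048512 beside Actb at −0.20. Beside Actg1, a transcript record without a symbol was at −0.62. The clone gene 0610009L18Rik beside it was well above background on the control array alone.

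The promoters were read for motifs of SRF and for 3 other short motifs. They came from RefSeq entries on the GRCm38.p6 assembly that run from 250 bases before the start of a gene to 50 after it. Entries matched 4 of the 6 genes, Acta1, Acta2, Actc1 and Actg1, and not Actb or Actg2. The CArG box, the sequence that SRF binds, is CC and GG around a core of A and T letters. It was found on either strand in Actc1, 47 bases before the start, in Acta1, 73 before, and in Actg1, 90 before. Of 32851 promoters of the same length, 1.63% hold it. A CArG box with 1 C or G in its core, held by 8.50% of promoters, was found 3 times in Actc1, 2 times in Acta1 and 2 times in Acta2. The letters CATTCC, to which TEAD factors bind, were found in Acta1 and Acta2 and are held by 14.7% of promoters. The E-box CANNTG, a loose pattern that takes in sites of myogenic factors such as MyoD, was found in all 4, and 72.3% of promoters hold it. The only one in Actg1 reads CACGTG, and which factors bind these boxes was not tested. In Actc1 it was found only after the start, at base 9. TATAAA was found in Acta1, 7 bases before the start, and in Actc1 only after the start, at base 34. It is held by 13.6% of promoters. None of these matches overlapped another. The 2 sarcomeric promoters are shown over the 250 bases before the start, plus 1 shorter window each for Acta2 and Actg1. Acta2 holds only the form with 1 C or G in the core, and Actg1 only the exact form. Capitals mark both forms of the CArG box, and all 4 are on the minus strand of GRCm38.p6, written 5′ to 3′:
Actc1, chr2:114052876-114053125: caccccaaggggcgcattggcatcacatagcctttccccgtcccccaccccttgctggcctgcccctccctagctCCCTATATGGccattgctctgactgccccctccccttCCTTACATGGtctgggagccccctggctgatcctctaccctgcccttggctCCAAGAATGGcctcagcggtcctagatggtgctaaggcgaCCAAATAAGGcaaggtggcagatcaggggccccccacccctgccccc
Acta1, chr8:123894776-123895025: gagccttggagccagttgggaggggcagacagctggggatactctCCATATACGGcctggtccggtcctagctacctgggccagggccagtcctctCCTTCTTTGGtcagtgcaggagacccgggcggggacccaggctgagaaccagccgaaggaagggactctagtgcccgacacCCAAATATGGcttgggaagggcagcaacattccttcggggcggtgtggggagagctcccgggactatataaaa
Acta2, chr19:34255438-34255467: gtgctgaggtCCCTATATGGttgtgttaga
Actg1, chr11:120348566-120348595: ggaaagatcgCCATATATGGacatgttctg
The box CCCTATATGG is found both in Actc1, 175 bases before the start, and in Acta2, 84 before. The ratios of these genes were −3.79 and 0.24, and the part of this box in them was not tested. A match gives the letters of the window and no measure of binding. Distances are counted from the start of the RefSeq entry, and where transcription starts in this muscle was not tested.

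The genes that control, bind and fold actin were followed in 9 lists. For genes with several probes the brightest measured one was taken. Other probes of a gene can differ from it, as for Tpm3, at 0.11 by the brightest and −0.87 by the other. Over all 17806 gene entries measured, 2.01% were at least 2-fold lower, 2.3% at least 2-fold higher, 8.13% at least 1.5-fold lower and 7.22% at least 1.5-fold higher, with a median of −0.03 and 52.9% below 0. No list had a member 2-fold lower. Their medians lay between −0.16 and 0.22 after scaling.

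The thin filament partners, tropomyosins, troponins, nebulins and end-capping proteins that cover the actin filament, had 15 of 17 genes measured. Of these, 2 were at least 1.5-fold higher and 4 at least 1.5-fold lower, with a median of −0.16. Tnnt2, at 0.438 in the control pool and 1.58 in the cast pool, was the 1 member past 2-fold. Slow troponin I (Tnni1, −0.98), beta-tropomyosin (Tpm2, −0.79) and slow troponin C (Tnnc1, −0.71) were lower. The filament nucleator leiomodin 3 (Lmod3, 0.78) was higher, at 19.0 and 32.6.

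The SRF and MRTF regulators had 11 of 14 genes measured, with 2 at least 1.5-fold higher, 2 at least 1.5-fold lower and a median of −0.14. Srf itself read 7.34 in the control pool and 3.82 in the cast pool, a ratio of −0.94, and its other probe was at −0.69. Its coactivator gene Mrtfb read 6.76 and 13.0, a ratio of 0.94, and its 3 probes lay between 0.51 and 0.94. The related Mrtfa was at −0.14. The RNA signal of Srf was thus lower and that of Mrtfb higher in the cast pool, by every probe of both genes. Their proteins were not measured.

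The SRF and MRTF targets outside the actins had 15 of 15 genes measured, with 4 at least 1.5-fold higher, none as much lower and a median of −0.04. Ankrd1, a titin-binding repeat protein, read 0.539 in the control pool and 7.81 in the cast pool, a ratio of 3.86. The matrix protein gene Ccn1 was at 1.38, the early response factor gene Egr1 at 0.92 and Ccn2 at 0.61. The remaining targets lay within 1.5-fold of control. Of these targets, 7 lay above 0 and 8 below, where 52.9% of all gene entries were below 0. The part of SRF in these values, or in those of the actin genes, was not tested.

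**Figure D5:**
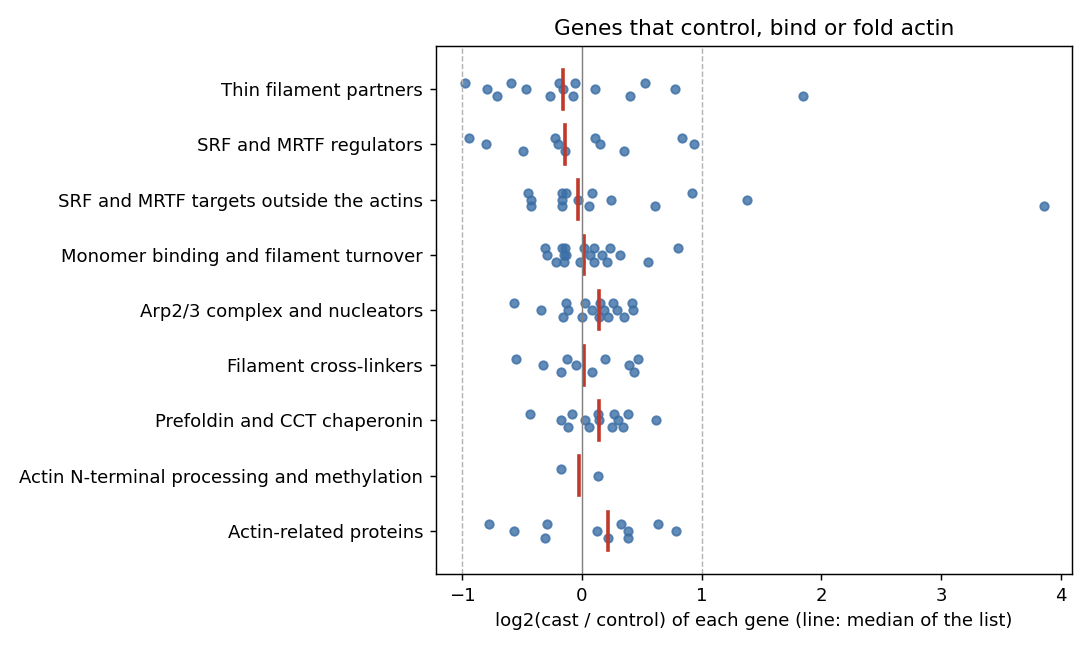
log2(cast/control) of every measured gene in 9 lists of genes that control, bind or fold actin, 1 point per gene, with the list median as a vertical line and dashed lines at 2-fold. The medians lie between −0.16 and 0.22, and Ankrd1 at 3.86, Tnnt2 at 1.85 and Ccn1 at 1.38 are the points past 2-fold.

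Of the monomer binding and filament turnover genes, 19 of 20 were measured, 1 was at least 1.5-fold higher and none lower, with a median of 0.01. That gene was the muscle cofilin Cfl2, which severs filaments, at 0.80 by its brighter probe and −0.55 by the other, so its direction depends on the probe. The cyclase-associated Cap2 was at 0.55. Of the Arp2/3 complex and nucleator genes, 17 of 18 were measured and none passed 1.5-fold, with a median of 0.14, Actr2 at −0.57 and Arpc2 at 0.42. All 10 filament cross-linkers were measured, none passed 1.5-fold and the median was 0.02, with the muscle filamin gene Flnc at 0.47.

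Newly made actin is folded by prefoldin and the CCT chaperonin, for which 14 of 14 genes were measured. One of them, the chaperonin subunit gene Tcp1 at 0.62, was at least 1.5-fold higher, and the median was 0.14, with the prefoldin subunit gene Vbp1 at −0.43. The histidine methyltransferase gene Setd3 was at −0.18 and the N-terminal acetyltransferase gene Naa80 at 0.13. Of the actin-related proteins, 11 of 17 were measured, with 2 at least 1.5-fold higher, 1 at least 1.5-fold lower and a median of 0.22. The dynactin subunit gene Actr1a was at 0.79, Actr8 at 0.63 and Actr3b at −0.77. Actbl2, a further member of the actin family, was well above background on neither array.

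Non-muscle cells, which make mainly the cytoplasmic actins, showed these marker values. The 6 fibroblast markers were all below 0, with a median of −0.74 and summed levels of 224 and 131. The lowest ratios were those of the collagen genes Col1a1 at −1.76 and Col1a2 at −1.70. The brightest probe was that of Dcn, at 112 and 91.3, with a ratio of −0.29. The 6 endothelial markers had a median of −0.42, with 5 below 0 and summed levels of 17.0 and 12.3. Of 7 macrophage markers, 6 were measured, with a median of 0.25, 4 above 0 and summed levels of 20.0 and 16.3. The integrin gene Itgam, at 13.8 and 9.53, made up most of both sums. Of 5 satellite cell markers, 3 were measured, with a median of 0.078 and summed levels of 3.45 and 8.37. The cadherin gene Cdh15, at 1.35, made up most of both sums, while Pax7 was at 0.078 and Chodl at 0.065. Calcr was well above background on the control array alone, and Myf5 on neither. The part of these cells in the lower Actg1 signal, or in the difference between the Actb probes, was not tested.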

How the data were processed

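Gene expression was measured with 1-colour Agilent whole mouse genome arrays, 1 pooled array per group. The submitters' processing notes name Agilent Feature Extraction 9.5. Its processed intensity had the background subtracted and trends across the array removed, per the file headers, with no normalization between arrays. Probe coordinates on mm9 and the flags for spots well above background come from the same deposited files. The deposited value table holds 100 times the processed intensity over the 75th percentile of all spots, with 54.9% of its 44397 values whole, and column medians of 9.00 in control and 8.70 in cast. It served as an alternative.

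Flagged outlier spots (214 gene spots over both arrays) were left out, processed signals were log2-transformed, replicate spots averaged and each array's 75th percentile over gene probes subtracted. A probe was measured when more than 0.5 of its spots were well above background on each array, which held for 23897 (60.6%) of probes in control and 22373 (56.8%) in cast. The value of a gene in a list is that of its brightest measured probe. Names came through accessions from the RefSeq gene table for 26042 probes and otherwise from the array. With 1 array per group no test was run. The spot error came from 259 replicated probes. Tools were Python 3.11.15, numpy 2.4.6, pandas 2.3.3, R 4.3.3 and limma 3.58.1.

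The members and lists were chosen with earlier results of these data known. Named were every actin probe, list members past 2-fold or else the pair with the largest ratio, and the 3 genes nearest to Actc1. The same rule holds for the endothelial markers Emcn (−0.68) and Kdr (−0.56) and the pericyte markers Cspg4 (−0.47) and Kcnj8 (−0.24). It also holds for the macrophage marker Lyz2 (0.58), and none of these was named above. List members named besides the rule, such as Tpm2, Lmod3, Egr1 and Actr8, were chosen after their values were seen. Alternatives were no scaling, median, quantile, loess and spike-in scaling, normexp with offset 50, the deposited table, no filter on dim probes and the mean of the probes of a gene. Exon and UTR positions were not analysed here, and 1 list member is not reported here.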

Additional observations from a re-analysis of the deposited data

How the results depend on the processing

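No paired analysis was possible because each group has 1 pooled array, and no array could be left out. Over 9 alternatives, 147 recomputed values stayed within 0.20 log2 units of the value given, or 1.5 times for a count, and 53 moved further. Some of the 147 could not move. The filter on dim probes leaves the ratio of a probe as it is, and averaging leaves that of a gene with 1 probe. Median scaling adds 1 constant below 0.20 to every ratio. The deposited table holds the same processed signals over nearly the same divisor. Ratios thus stayed within 0.20 under both of these settings by construction, and the count of 147 does not measure how firm the values are. Most that moved did so without scaling or with scaling to 7 spike-in controls, whose unscaled mean was −0.01 (SD 0.04), and these settings raise all ratios together. In that order they gave Acta1 −0.21 and −0.20, Acta2 0.58 and 0.59, the brighter Actb probe 0.38 and 0.39, Actc1 −3.45 and −3.44, the brightest Actg1 probe −0.27 and −0.26, and Actg2 0.59 and 0.60. Quantile normalization gave −0.32 for Acta1, and the mean of both Actb probes was −0.24.

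Probes at least 2-fold higher numbered 477, against 1238 without scaling, 1284 with spike-ins, 248 with normexp and 1167 without the filter. Those at least 2-fold lower numbered 444, against 161, 158, 202 and 1388. List medians without scaling and with spike-ins were 0.18 and 0.19 for thin filament partners, 0.20 and 0.21 for SRF and MRTF regulators (0.084 without the filter), 0.30 and 0.31 for their targets, 0.35 and 0.36 for monomer binding, 0.48 and 0.49 for Arp2/3, 0.36 and 0.37 for cross-linkers, 0.48 and 0.49 for prefoldin and CCT, 0.32 and 0.33 for N-terminal processing and 0.56 and 0.57 for actin-related proteins, beside 0.31 and 0.32 over all genes. The cause of the differences with normexp was not tested. Depth has no meaning for these arrays, and dim probes such as that of Actg2 are limited by signal over background.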
